A study of Homo sapiens with 6 samples.

Results

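The genes described here are 40 genes of the ATF4 amino acid response, including 10 cytosolic aminoacyl-tRNA synthetases, in THP1 cells, a line of monocytic type from acute myeloid leukaemia. The list was set by gene symbol. Among probe sets that the array annotation assigns to exactly 1 gene symbol, the one with the highest mean over the 6 arrays stood for its gene. This gave a value for 39 of the 40 among 19775 genes in all; MARS1, the methionyl-tRNA synthetase, has no probe set of its own in that annotation and was not analysed here. The study compared 3 untreated samples with 3 samples kept for 48 hours on a coating of Dll4-Fc, in which the Notch ligand Delta-like 4 is joined to the Fc part of an antibody, on Affymetrix Human Genome U133 Plus 2.0 arrays. Both groups were the same cell line in RPMI medium with 10% fetal calf serum, Glutamax and antibiotics. The coating was 30 nM by the protocol text and 60 nM by the sample labels, the control is named vehicle in one place and untreated in another, and no well with Fc alone is named. Nothing in the labels ties the samples to separate cultures, and p-values here reflect only the spread among these samples, possibly a technical one.

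ATF4 is the transcription factor of the integrated stress response. When amino acids run short, unfolded protein builds up in the endoplasmic reticulum or viral RNA or haem shortage is sensed, one of 4 kinases phosphorylates the translation factor eIF2, general translation slows and the ATF4 message is translated more, so that much of its control lies beyond the level of its mRNA, which is what an array measures. ATF4, with partners of the C/EBP family, then binds composite C/EBP-ATF elements in genes for amino acid synthesis, amino acid uptake and tRNA charging, and in genes of a stress and feedback programme.

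Of the 39 measured genes 28 were higher with Dll4-Fc and 1 was lower at an adjusted p under 0.05 by limma's moderated test, with Benjamini-Hochberg adjustment across the 19775 genes. In the same test 11.6% of all genes were higher and 15.0% lower, shares to be set beside the counts of every list below. The test was also run only on the 12772 genes whose mean reached the median of all probe sets. Of these 2326 were higher and 3261 lower. They included 38 of the 39, of which 29 were higher and 1 lower. That mean includes the Dll4-Fc arrays. ATF3, CHAC1, GDF15 and STC2, with untreated means below the median, reached it only through those arrays, so for them the count does not stand apart from the filter. The median difference of the 39 was 0.46 on the log2 scale, beside -0.01 for all genes. The groups did not overlap, with Dll4-Fc above, for 30 of the 39 (18.1% of all genes) and, with Dll4-Fc below, for 2 (23.5% of all genes). Most rises were small. Of the 28, 24 were under 2-fold, and the 4 others were ATF3, GDF15, NUPR1 and WARS1 (2.60% of all genes rose at least 2-fold). When each array was left out in turn, between 23 and 27 rose. The count depended on the choice of probe sets. Affymetrix marks with a suffix (_s, _x or _a) those that can match several transcripts, often of 1 gene, and without them 27 of the genes were measured and 14 rose (beside 9.4% of all genes), with 0 lower because VLDLR then has no probe set (limma; 0 also at an unadjusted p under 0.05). Of the 14 rises lost in this way, 7 were of genes that had only such probe sets and so no value, ATF5, NUPR1, SESN2, PSAT1, SLC7A5, SLC3A2 and GARS1, and 7 were of genes that were still measured and did not pass, ATF3, GDF15, STC2, ASNS, PSPH, CBS and YARS1. Levels are log2 signals of single arrays in the order of replicates 1, 2 and 3, a difference is the mean of the Dll4-Fc arrays less that of the untreated arrays in log2 units, and ± is the standard error of the difference with n = 3 arrays per group.

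**Figure D1:**
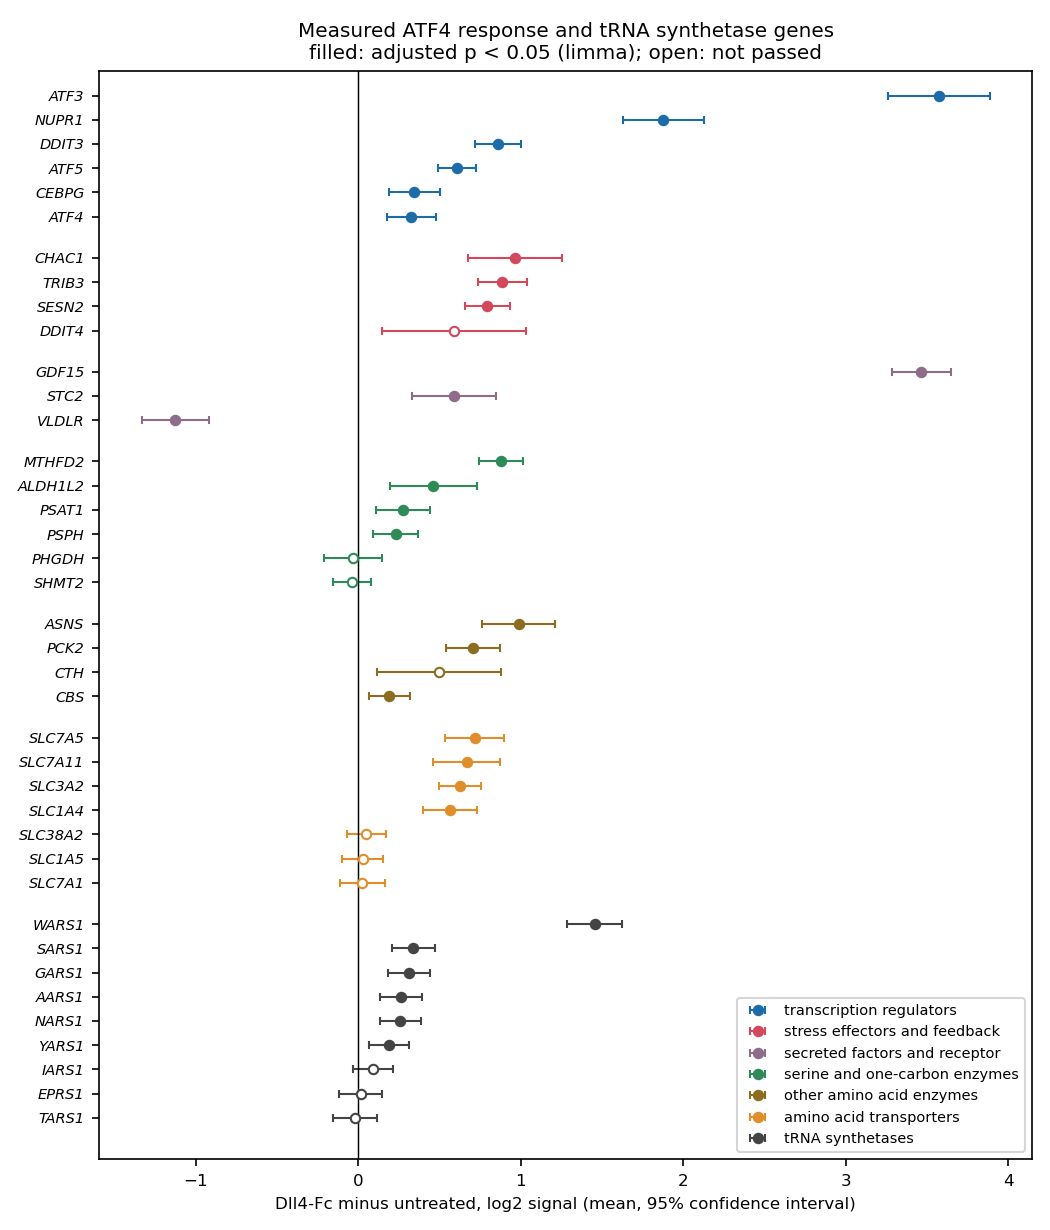
Difference in log2 signal, Dll4-Fc minus untreated, for the 39 measured genes by role, with 95% confidence intervals from limma on the horizontal axis. Filled points passed the test at an adjusted p under 0.05 and open points did not; 28 filled points lie to the right of 0 and 1, VLDLR, to the left.

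Promoter sequence was examined because one kind of element is known in part of the members. RefSeq promoter windows (GRCh38.p14, 250 bases before to 50 after an annotated start) were at hand for 34 of the 40 genes, 54 windows in all, and not for NUPR1, PSPH, SHMT2, ALDH1L2, SLC7A11 and YARS1. The core of the C/EBP-ATF element, searched as TGATGNAA on both strands, was in the windows of 14 of the 34 genes (41.18%), beside 4.46% of the 27305 genes with a window of this length. By window the shares were 25.93% and 3.62%. With C at the open base, TGATGCAA, a subset of the first motif, it was in 9 of the 34 (26.47%) beside 1.08%. The cyclic AMP response element TGACGTCA, to which ATF family dimers also bind, was found in 0 of the 34 and in 2.25% of all genes. The members were listed partly because such elements are known in some of them, so the share is a description of the list. Some sites that lie wholly before the start are shown, in the direction of the gene and with the match in capitals. The ATF3 match to the C/EBP-ATF core, 191 bases before the start, is also of this kind and is not printed. Sites are printed for 5 other genes that rose, for SLC1A5, which has the element and did not pass the test, and for WARS1, whose window holds a different motif:
ASNS: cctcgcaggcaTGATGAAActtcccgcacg
CHAC1: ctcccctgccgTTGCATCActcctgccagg
CEBPG: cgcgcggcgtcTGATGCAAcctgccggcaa
AARS1: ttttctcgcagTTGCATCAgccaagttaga
GARS1: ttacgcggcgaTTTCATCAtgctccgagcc
SLC1A5: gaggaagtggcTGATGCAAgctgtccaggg
WARS1: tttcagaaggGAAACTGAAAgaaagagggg
They lie at chr7:97872458-97872487 on the minus strand, chr15:40953251-40953280 and chr19:33374060-33374089 on the plus strand, chr16:70289675-70289704 on the minus strand, chr7:30594834-30594863 on the plus strand, and chr19:46784893-46784922 and chr14:100375383-100375412 on the minus strand. In CHAC1, AARS1 and GARS1 the capitals are the element read on the opposite strand. The WARS1 match is the core of the interferon-stimulated response element, searched on both strands as GAAA, any 2 bases and GAAA again, and starts 55 bases before the annotated start. That core was in 2 of the 34 genes, WARS1 and ATF5 (5.88%), beside 4.38% of all genes.

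**Figure D2:**
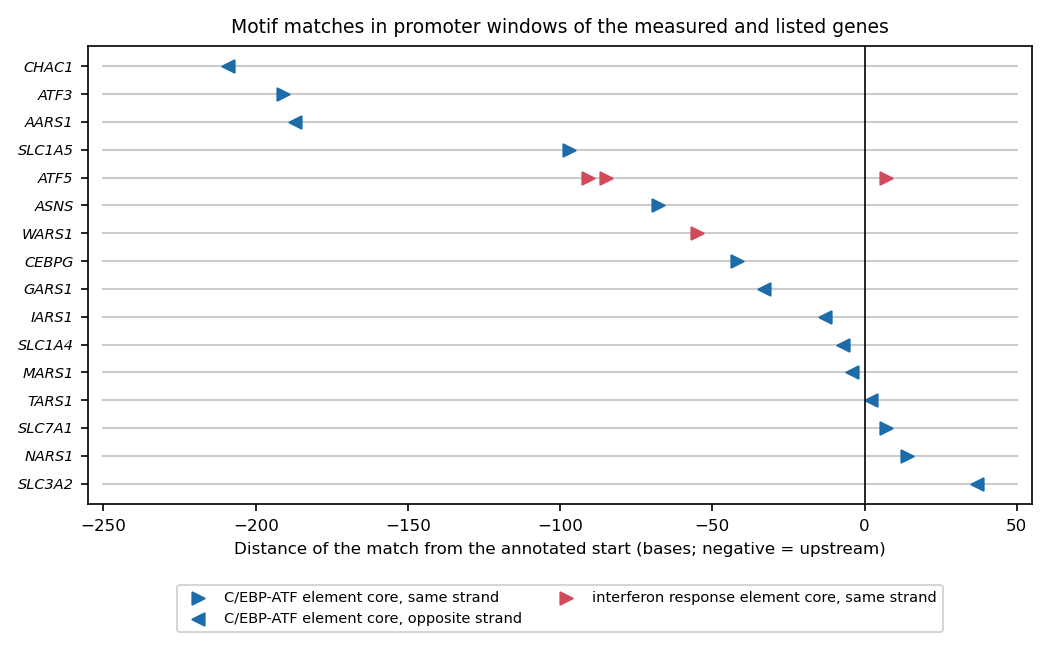
Positions of the matches to the C/EBP-ATF core (blue) and the interferon response core (red) in the promoter windows, in bases from the annotated start on the horizontal axis, with arrowheads for the strand; each grey line is 1 gene. Matches of the C/EBP-ATF core run from 209 bases before the start in CHAC1 to 37 after it in SLC3A2.

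The element was found both in genes that rose and in genes that did not pass. Among the genes that rose and had a window it was in 9 of 23, and among those that did not pass in 4 of 9; the difference between these shares was not tested. Of the measured cytosolic synthetases with it, AARS1, GARS1 and NARS1 rose and IARS1 and TARS1 did not pass. In the list of the 13 other cytosolic synthetases and scaffold proteins of their complex it was in 1 of 10 genes with a window, and in the list of mitochondrial synthetases in 1 of 14.

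All 6 transcription regulators rose. ATF4 itself read 12.11, 12.19 and 12.13 on the untreated arrays and 12.37, 12.50 and 12.55 on the Dll4-Fc arrays, a rise of 0.33 ± 0.06 (1.26-fold, adjusted p = 0.00851 by limma). Every Dll4-Fc array lay above every untreated one, by a small amount. DDIT3, which encodes the pro-apoptotic factor CHOP and is induced by ATF4, read 8.88, 8.97 and 8.97 untreated and 9.78, 9.87 and 9.75 with Dll4-Fc (0.86 ± 0.06, 1.82-fold, limma adjusted p = 5.52e-05). The steepest rise of the group was that of ATF3, a stress-induced repressor of the same protein family, from 5.86, 5.65 and 5.28 to 9.17, 9.19 and 9.15 (3.57 ± 0.13, 11.9-fold). The 3 treated ATF3 values lay within 0.05 of each other, while the untreated ones, on both sides of the array median of 5.69, spread more, so the size of the fold is uncertain. A second ATF3 probe set gave a rise of 1.06 and another, dim in both groups at 5.27 and 5.29, gave 0.03 and did not pass. NUPR1, a small chromatin-associated stress protein, went from 6.15, 6.40 and 6.50 to 8.08, 8.28 and 8.33 (1.88 ± 0.11, 3.67-fold). ATF5, an ATF4 relative linked to mitochondrial stress, rose by 0.61 ± 0.05, with 2 of its 4 probe sets passing. CEBPG, a dimer partner of ATF4 and bearer of one of the elements printed above, rose by 0.35 ± 0.07 (9.73, 9.70 and 9.53 untreated, 9.99, 9.98 and 10.03 with Dll4-Fc). Its second probe set was brighter on the untreated arrays (mean 9.82 against 9.65). It did not pass, with a difference of -0.12 and every Dll4-Fc array below every untreated one. The mean of both gave 0.11 (limma adjusted p = 0.195). The CEBPG call therefore rests on 1 probe set, chosen through its Dll4-Fc arrays.

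**Figure D3:**
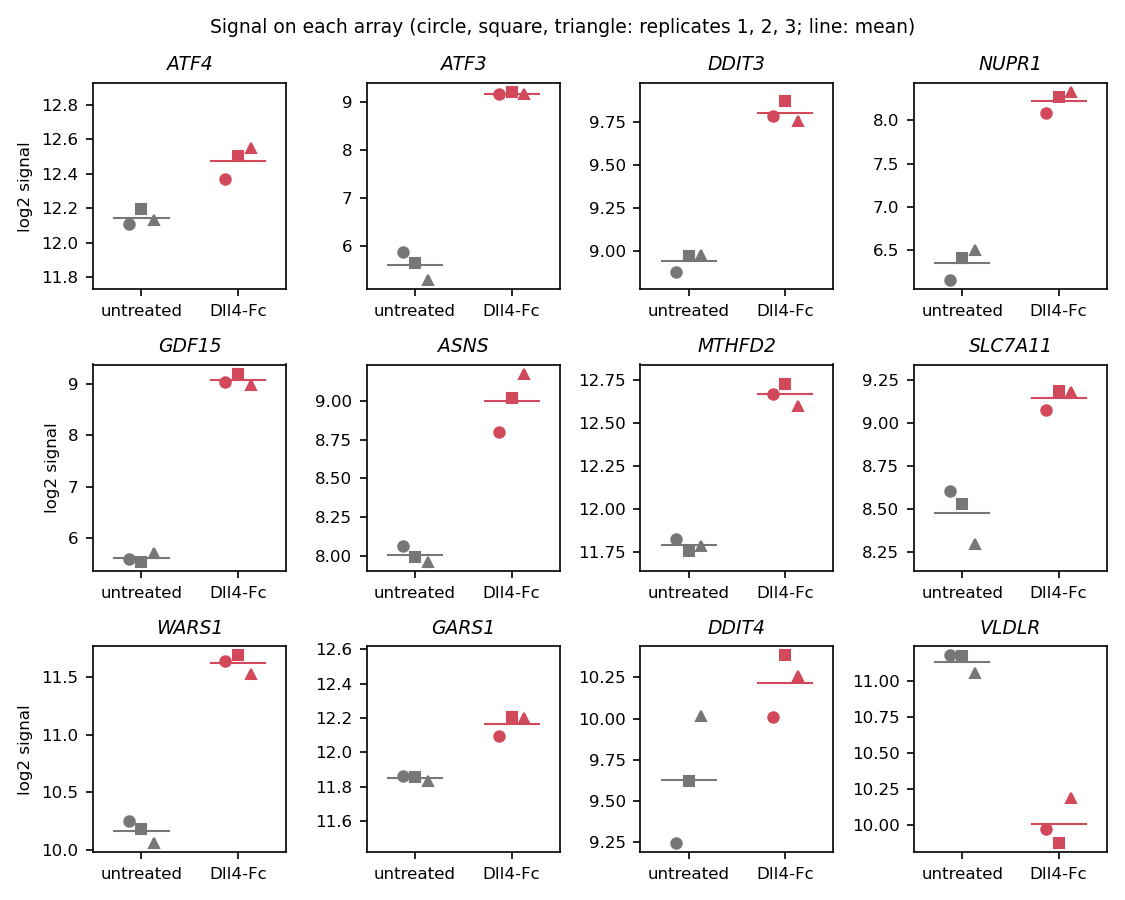
Log2 signal on each array for 12 of the genes (vertical axes differ between panels and do not start at 0), grey for untreated and red for Dll4-Fc, with circles, squares and triangles for replicates 1, 2 and 3 and a line for the mean. The groups are apart in every panel except DDIT4, where untreated replicate 3 at 10.02 lies just above Dll4-Fc replicate 1 at 10.01.

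Of the 4 stress effectors 3 rose. CHAC1, which degrades glutathione, read 5.63, 5.68 and 5.64 untreated and 6.36, 6.89 and 6.59 with Dll4-Fc (0.96 ± 0.12, 1.95-fold, limma adjusted p = 0.00118). Its untreated values were near the array median, and the treated ones were above it and further apart. TRIB3, a pseudokinase that restrains AKT and ATF4 itself, went from 9.61, 9.75 and 9.58 to 10.49, 10.57 and 10.53 (0.89 ± 0.06, 1.85-fold), and both of its probe sets passed. SESN2, a leucine sensor that holds back the growth kinase mTORC1, rose by 0.80 ± 0.06, again with both probe sets. DDIT4, another brake on mTORC1, read 9.25, 9.62 and 10.02 untreated and 10.01, 10.38 and 10.26 with Dll4-Fc. The groups overlapped through untreated replicate 3, the untreated arrays spanned more than for any other of the 39 genes, and the difference of 0.59 ± 0.19 did not pass (limma adjusted p = 0.058; 95% interval, not adjusted for the number of genes, 0.14 to 1.03). Without untreated replicate 3 it was 0.78 and passed (limma adjusted p = 0.0109). With all 6 arrays it passed in several alternatives, at limma adjusted p from 0.0191 with array weights to 0.0459 with all probe sets averaged. It did not pass under cyclic loess or a trended robust prior, so DDIT4 lies near the threshold.

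The secreted factors and the receptor on the list moved in both directions. GDF15, a stress-induced cytokine of the transforming growth factor beta family, read 5.59, 5.54 and 5.70 untreated and 9.04, 9.20 and 8.99 with Dll4-Fc (3.47 ± 0.08, 11.1-fold, limma adjusted p = 2.19e-07). The untreated values lay near the array median and the treated ones well above it. Its other probe sets, with group means of 4.69 and 4.71 and of 4.61 and 4.78, gave 0.02 and 0.17 and did not pass. The GDF15 call therefore rests on 1 probe set, which has the suffix _x. STC2, a secreted glycoprotein of the stanniocalcin family, was near the array median throughout and rose by 0.59 ± 0.11 (limma adjusted p = 0.00651). Its second probe set, with group means of 4.57 and 4.90 and overlapping groups, gave 0.34 and did not pass (limma adjusted p = 0.19). VLDLR, a receptor for triglyceride-rich lipoproteins, was the only one of the 39 that fell, from 11.18, 11.17 and 11.05 to 9.97, 9.87 and 10.18, by 1.13 ± 0.09 on the log2 scale (2.18-fold, limma adjusted p = 0.000104). In all genes a fall of at least 2-fold was seen for 0.602%. VLDLR has 1 probe set, and its call did not depend on any single array.

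Among enzymes of serine synthesis and mitochondrial one-carbon metabolism, the clearest rise was that of MTHFD2, the mitochondrial methylene-tetrahydrofolate dehydrogenase. It read 11.83, 11.76 and 11.79 untreated and 12.67, 12.73 and 12.60 with Dll4-Fc (0.88 ± 0.06, 1.84-fold, limma adjusted p = 4.13e-05), and both probe sets passed. PHGDH, the first enzyme of serine synthesis, did not pass, at 9.54, 9.40 and 9.40 and 9.30, 9.42 and 9.52 (-0.03 ± 0.08, 95% interval -0.21 to 0.14), nor did SHMT2, which splits serine in mitochondria (-0.04 ± 0.05, interval -0.16 to 0.08). For both, a rise as large as that of MTHFD2 lies outside the interval. The later steps PSAT1 and PSPH rose by 0.28 ± 0.07 and 0.23 ± 0.06 (limma adjusted p = 0.0262 and 0.024), and ALDH1L2, which oxidizes formyl-tetrahydrofolate in mitochondria, by 0.46 ± 0.11 (0.0218). These 3 calls depended on single arrays. PSAT1 did not pass without untreated replicate 2 or 3 or Dll4-Fc replicate 2 or 3 (adjusted p up to 0.0936), PSPH without any array other than Dll4-Fc replicate 1 (up to 0.074), and ALDH1L2 without Dll4-Fc replicate 2 or 3 (up to 0.0713). The count of the group, 4 of 6, was therefore 2 without untreated replicate 2 or 3, 1 without Dll4-Fc replicate 2 or 3, and 2 when all probe sets were averaged.

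Of the 4 other amino acid enzymes, ASNS and PCK2 rose clearly. ASNS, asparagine synthetase and the textbook target of the element printed for it above, read 8.07, 7.99 and 7.97 untreated and 8.80, 9.02 and 9.17 with Dll4-Fc (0.99 ± 0.10, 1.98-fold, limma adjusted p = 0.000303). The 3 treated arrays stood well above the untreated ones and differed among themselves by more. Its second probe set, dim in both groups at 3.21 and 3.32, gave 0.11 and did not pass. PCK2, the mitochondrial phosphoenolpyruvate carboxykinase, went from 8.51, 8.48 and 8.54 to 9.07, 9.28 and 9.29 (0.70 ± 0.07, 1.63-fold). The transsulfuration enzymes, which make cysteine from homocysteine, gave weaker results. CBS rose by 0.19 ± 0.05 (limma adjusted p = 0.0331), a call lost without any array other than untreated replicate 2 (adjusted p up to 0.112). CTH differed by 0.50 ± 0.16 without passing (limma adjusted p = 0.0626), although its groups did not overlap, and it passed without untreated replicate 1 (0.0378) or 3 (0.0421).

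The amino acid transporters fell into 4 that rose, between 1.48-fold and 1.64-fold, and 3 with differences of 0.05 or less. SLC7A5, the light chain of the exchanger for large neutral amino acids, read 9.04, 8.92 and 8.83 untreated and 9.54, 9.70 and 9.70 with Dll4-Fc (0.72 ± 0.08, limma adjusted p = 0.000479). SLC7A11, the light chain of the cystine-glutamate exchanger, went from 8.61, 8.53 and 8.30 to 9.07, 9.19 and 9.18 (0.67 ± 0.09, limma adjusted p = 0.00139), with 2 of 3 probe sets passing. SLC3A2, the heavy chain that both of these light chains need to reach the membrane, went from 8.88, 8.87 and 8.78 to 9.43, 9.49 and 9.49 (0.63 ± 0.06, limma adjusted p = 0.000184). Both light chains and their shared heavy chain were thus higher on every Dll4-Fc array than on any untreated one. SLC1A4, a carrier of alanine, serine and cysteine, rose by 0.56 ± 0.07, with 4 of 5 probe sets passing. Its relative SLC1A5, the main glutamine carrier, read 8.39, 8.30 and 8.36 and 8.35, 8.36 and 8.41 and differed by 0.03 ± 0.05 (95% interval -0.10 to 0.15). The arginine and lysine carrier SLC7A1 differed by 0.03 ± 0.06 (interval -0.11 to 0.16, none of its 5 probe sets passing) and the carrier of small neutral amino acids SLC38A2 by 0.05 ± 0.05 (interval -0.07 to 0.17). For these 3 the groups overlapped, and a rise as large as that of SLC1A4 lies outside each interval.

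Aminoacyl-tRNA synthetases attach each amino acid to its tRNA. Of the 9 measured here 6 rose, 5 of them by 0.19 to 0.34 and WARS1, the tryptophanyl-tRNA synthetase, by 1.45 ± 0.07 (2.74-fold, limma adjusted p = 9.79e-06). WARS1 read 10.25, 10.18 and 10.06 untreated and 11.64, 11.69 and 11.53 with Dll4-Fc, and its other probe set rose by 1.38. The seryl enzyme SARS1 went from 10.66, 10.63 and 10.54 to 10.95, 10.97 and 10.93 (0.34 ± 0.06, limma adjusted p = 0.00391) and the glycyl enzyme GARS1 from 11.86, 11.86 and 11.83 to 12.09, 12.20 and 12.20 (0.31 ± 0.06, limma adjusted p = 0.00514). The alanyl enzyme AARS1 (0.26 ± 0.05) and the asparaginyl enzyme NARS1 (0.26 ± 0.05) rose with no overlap between groups as well. The tyrosyl enzyme YARS1 rose by 0.19 ± 0.05 (limma adjusted p = 0.0321), a call lost without any array other than untreated replicate 1 (adjusted p up to 0.108). Those that did not pass were the bifunctional glutamyl-prolyl enzyme EPRS1, at 12.48, 12.43 and 12.40 untreated and 12.49, 12.39 and 12.47 with Dll4-Fc (0.02 ± 0.06, interval -0.12 to 0.15), the threonyl enzyme TARS1 (-0.02 ± 0.06, interval -0.15 to 0.11) and the isoleucyl enzyme IARS1 (0.09 ± 0.05, interval -0.03 to 0.21). For IARS1 the groups did not overlap, but the difference was small.

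WARS1 is also known as a gene induced by interferon gamma, and its promoter window holds the interferon response core shown above. Of 8 measured genes of an interferon gamma response list 5 rose, among them the GTPase genes GBP1 (5.34 ± 0.14, 40.4-fold) and GBP2 (3.10 ± 0.13, 8.56-fold) and the chemokine genes CXCL10 (3.98 ± 0.17, 15.7-fold) and CXCL9 (0.41 ± 0.08). The untreated means of these 4 genes, 3.92, 4.88, 4.67 and 4.70 in that order, lay below the array median of 5.69, as did the Dll4-Fc mean of CXCL9, so the sizes of their folds are uncertain. The median of this list was 0.37. The transcription factor gene IRF1 rose by 0.34 ± 0.09, a call lost without untreated replicate 2 or 3 or Dll4-Fc replicate 1 or 2. The tryptophan-degrading IDO1 (-0.11 ± 0.10, limma adjusted p = 0.501) and the class II transactivator CIITA (0.03 ± 0.14, 0.918) did not pass. The part of these genes' change in the WARS1 value was not tested.

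Of the other cytosolic synthetases and the scaffold proteins of their complex 9 genes were measured. The cysteinyl enzyme CARS1 (0.23 ± 0.06), the histidyl enzyme HARS1 (0.22 ± 0.05) and the scaffold protein AIMP1 (0.19 ± 0.05) rose, and the median was 0.12. These were weak calls: 3 rose in all, 1 without untreated replicate 1 or Dll4-Fc replicate 1 or 3, and 0 without untreated replicate 2 or Dll4-Fc replicate 2 (limma; 4 of the 9 were higher at an unadjusted p under 0.05 with all arrays). AIMP1 differed by -0.079 as the mean of its probe sets. Of the 15 measured mitochondrial synthetases, which are encoded by separate genes, 3 fell: PARS2 (-0.33 ± 0.07), RARS2 (-0.24 ± 0.05) and IARS2 (-0.20 ± 0.06), a share near the 15.0% of all genes that were lower. RARS2 differed by -0.084 as the mean of its probe sets and did not pass (limma adjusted p = 0.362). None of the 15 was higher, also at an unadjusted p under 0.05, except LARS2 under cyclic loess, and their median was -0.10. The number that fell was 1 without untreated replicate 2 and 0 without Dll4-Fc replicate 1 (2 at least were called with any other array left out). Differences between the lists of synthetases were not tested.

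**Figure D4:**
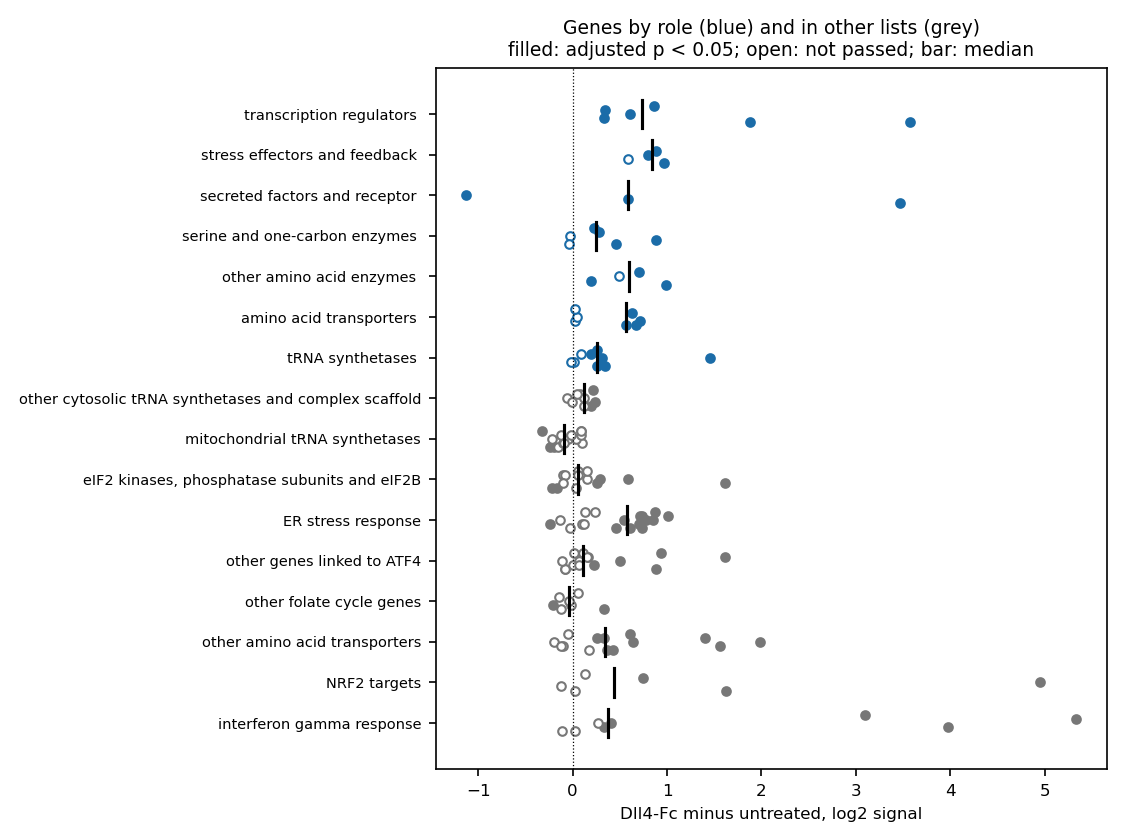
Differences in log2 signal, Dll4-Fc minus untreated, on the horizontal axis, with 1 point per gene, for the genes described here by role (blue) and for 9 other lists (grey); filled points passed limma's test and bars are medians. The bars of the 7 blue rows lie between 0.25 and 0.84, and that of the mitochondrial synthetases at -0.10.

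Upstream of ATF4, the message of 1 eIF2 kinase stood out. EIF2AK2, the RNA-activated kinase PKR and an interferon-induced gene, read 9.38, 9.52 and 9.29 untreated and 11.07, 11.03 and 10.92 with Dll4-Fc (1.61 ± 0.08, 3.05-fold, limma adjusted p = 7.83e-06). EIF2AK3, the endoplasmic reticulum kinase PERK, rose by 0.29 ± 0.08 (limma adjusted p = 0.0408), a call lost without any array other than untreated replicate 2. EIF2AK4, the amino acid sensor GCN2, differed by -0.10 ± 0.06 without passing (limma adjusted p = 0.297). The haem-sensing kinase gene EIF2AK1 fell by 0.22 ± 0.05, a call lost without Dll4-Fc replicate 1 or 2, and GCN1, a partner of GCN2, by 0.16 ± 0.05, a call lost without any one array. PPP1R15A, the stress-induced subunit (GADD34) that directs a phosphatase to eIF2 and is itself an ATF4-pathway gene, rose by 0.59 ± 0.08 (limma adjusted p = 0.00121). The eIF2B subunit gene EIF2B3 rose by 0.26 ± 0.06, a call lost without untreated replicate 2 or Dll4-Fc replicate 1 or 2. In this list 4 of the 14 genes rose and 2 fell, beside 11.6% and 15.0% of all genes. The share that fell was thus near that of all genes. The median was 0.06, and 2 genes rose without Dll4-Fc replicate 1 or 2. Phosphorylation of eIF2 is not measured by an array.

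Chaperone and other genes of the endoplasmic reticulum stress response were higher too. Of 18 measured genes 11 rose, with a median of 0.57, and their number was 11 or 12 when any array was left out. HERPUD1, which acts in the degradation of misfolded proteins, rose 2.01-fold (1.01 ± 0.06, limma adjusted p = 3.16e-05). The chaperone cofactor DNAJB9 rose by 0.87 ± 0.07 and CRELD2 by 0.86 ± 0.06. The secreted MANF rose by 0.78 ± 0.06. The chaperone gene HSPA5 (BiP), named here because it defines this response, read 12.94, 12.97 and 12.94 untreated and 13.71, 13.73 and 13.62 with Dll4-Fc. EDEM1, which directs misfolded glycoproteins to degradation, fell by 0.24 ± 0.06, a call lost without untreated replicate 2 or Dll4-Fc replicate 1 or 2. XBP1, a central factor of that response, differed by -0.14 ± 0.08 and did not pass.

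Other genes linked to ATF4 rose in part: 5 of 15 measured, with a median of 0.11. VEGFA, the vascular growth factor, rose 3.06-fold (1.61 ± 0.17), NFIL3, a transcriptional repressor, by 0.93 ± 0.07, JDP2, a repressor related to ATF3, by 0.88 ± 0.12 and CEBPB, a partner of ATF4, by 0.50 ± 0.05. The fifth, BCAT1, which transaminates branched-chain amino acids, rose by 0.22 ± 0.05 and was lost without untreated replicate 2 or Dll4-Fc replicate 1 or 2. The tRNA export factor XPOT (0.01 ± 0.06) and the proline synthesis enzymes PYCR1 (-0.08 ± 0.06) and ALDH18A1 (-0.08 ± 0.06) did not pass. Of 14 amino acid transporters outside the list 9 rose, with a median of 0.35. They were led by SLC7A7, the light chain of an arginine exchanger that also pairs with SLC3A2 (1.98 ± 0.09, 3.95-fold), the glutamate carrier SLC1A3 (1.56 ± 0.14), SLC7A8, a neutral amino acid light chain (1.40 ± 0.12, but 0.19 and limma adjusted p = 0.25 without shared probe sets), and the lysosomal carrier SLC36A1 (0.64 ± 0.06).

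Arrays of a group correlated across genes at 0.997 to 0.999 and arrays of different groups at 0.981 to 0.985. The 7 measured myeloid markers were all above the array median of 5.69. Their summed linear signal was 12526 to 13123 on untreated and 25158 to 27068 on Dll4-Fc arrays. The sum depends most on LYZ, whose mean went from 11.87 to 13.87 on the log2 scale. SPI1, CSF1R, ITGAM and PTPRC rose as well (5 in all), while MPO (-0.79 ± 0.11) and CEBPA (-0.21 ± 0.06) fell, so the markers did not move together. The part of these changes in the results above was not tested. The 4 T cell markers were all below that median, with sums of 106 to 110 untreated and 109 to 110 with Dll4-Fc. Of the 3 B cell markers PAX5 was above the median and rose by 0.60 ± 0.10, CD79A was also above it and MS4A1 below. Of the 2 erythroid, 4 epithelial and 4 fibroblast markers, 1 each was above it. In cells in bulk, a change in the RNA of each cell and a change in the share of cells with that RNA cannot be told apart.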

How the data were processed

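Total RNA of 6 THP1 samples, 5 ng each, was amplified, labelled with biotin and hybridised to 6 arrays, 3 per group, per the labels' protocols. The authors' deposited values are linear intensities of 54675 probe sets on each array, produced with RMA (background correction, quantile normalization and probe summary) per the submitters' processing notes; which version was run is not given in the sources. RMA shrinks differences of dim probe sets and hides a change in total RNA per cell. Here the deposited intensities were log2 transformed, with no filter, and tested by lmFit and eBayes of limma 3.58.1 under R 4.3.3 (2-sided, 4 residual degrees of freedom) over 19775 genes, the threshold being an adjusted p of 0.05. Precision is limited by the 6 arrays, and a difference had a median standard error of 0.075. The fit was tested on simulated data in which each array was drawn independently. Such data cannot show whether these samples are separate cultures.

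The genes were chosen, and the other lists made, with earlier results of these data known. All 39 measured genes are named, and of each other list up to 4 that passed with the largest differences, plus those that spell out a count of 5 or fewer. HSPA5, XBP1, EIF2AK4, IDO1, CIITA, XPOT, PYCR1, ALDH18A1, PAX5 and the genes of the closing observations that did not pass were chosen after their values were seen. Samples with the same replicate number did not deviate together (correlations of 0.01, -0.21 and -0.15), so the numbers were not treated as pairs. Promoter windows came from RefSeq (GRCh38.p14) and were matched by symbol.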

Additional observations from a re-analysis of the deposited data

How the results depend on the processing

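In 14 alternatives, 480 of 533 values of the 39 genes kept their side of the threshold, 41 no longer passed and 12 newly passed. Of values that passed in either fit 0 changed sign. Values that passed in neither could change sign and are counted among the 480, as for PHGDH (-0.09 to 0.03 with an array left out). In every alternative that measured them, 19 of the 29 called genes kept their call. Between 23 and 27 genes rose, and 1 fell, when each array was left out. Without probe sets that can match several transcripts 14 of 27 rose and 0 fell; of the 14 rises lost, 7 were of genes with no value left and 7 of genes still measured that did not pass. With the replicate number as a block 25 rose, 1 fell and 35 of 106 other listed genes passed in place of 48 (33 to 44 with an array left out); PSAT1, PSPH, CBS and YARS1 no longer passed and DDIT4 did. In deviations from the group means, 2 of 6 samples correlated best with the sample of the other group that had their own number. Over all genes the number lower was 1967 without untreated replicate 2 and 1850 without Dll4-Fc replicate 1, and 2964 with all arrays. AIMP1 changed sign, to -0.079 as the mean of its probe sets and -0.028 without shared probe sets; the cause was not tested. Signals near or below the array median, as for untreated ATF3, GDF15, CHAC1, STC2, CTH, HMOX1, GBP1, GBP2, CXCL9 and CXCL10, limit what their folds say.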

Other observations

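Cystine taken up through SLC7A11 is a source of cysteine for the synthesis of glutathione, and 3 of 6 measured targets of the oxidant-responsive factor NRF2 rose, with a median of 0.44. They were the haem oxygenase gene HMOX1 (4.95 ± 0.14, 30.8-fold, limma adjusted p = 6.69e-07), GCLC, the catalytic subunit of the first enzyme of glutathione synthesis (1.62 ± 0.10, 3.08-fold, limma adjusted p = 2.53e-05), and the quinone reductase NQO1 (0.74 ± 0.06). The untreated mean of HMOX1, 5.61, lay below the array median of 5.69, so the size of its fold is uncertain. GCLC read 8.74, 8.71 and 8.43 untreated and 10.22, 10.36 and 10.17 with Dll4-Fc, with no overlap. GCLM, the partner subunit of GCLC, did not pass (-0.12 ± 0.06, limma adjusted p = 0.182), and it was lower by the mean of its probe sets (-0.32, limma adjusted p = 0.00567). The thioredoxin reductase TXNRD1 (0.02 ± 0.05) did not pass.

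In the folate cycle outside the list, 7 genes were measured and the median was -0.04. SLC25A32, which carries folate into mitochondria, rose by 0.33 ± 0.09 (limma adjusted p = 0.0363), a call lost without any one Dll4-Fc array. TYMS, the thymidylate synthase of dividing cells, fell by 0.20 ± 0.06 (limma adjusted p = 0.0386), a call lost without any array other than Dll4-Fc replicate 3. The cytosolic MTHFD1 differed by -0.04 ± 0.05 and did not pass, beside the rise of 0.88 ± 0.06 of its mitochondrial relative MTHFD2; the difference between both genes was not tested.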
